A study of Homo sapiens with 6 samples.

Results

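Ribosome biogenesis and RNA polymerase I genes were followed in 22Rv1, a human prostate carcinoma cell line, after knockdown of ZMYND11, a chromatin reader protein. The set was given as a list of gene symbols chosen by function, many of them described as MYC targets. All 46 symbols were found among the 35322 genes of the deposited count table. RNA-seq was done on 6 libraries in 3 groups of 2, namely control (genotype WT), ZM11-kd1 and ZM11-kd2 (genotype ZMYND11 knockdown), here called control, kd1 and kd2. The labels list no treatment for any group. Per the study's methods, knockdown was made with lentiviral shRNAs and puromycin selection. The study describes the control cells of its 22Rv1 RNA-seq as carrying control shRNAs, while the labels give them only as WT and do not say which shRNA each knockdown group carries. Nothing in the labels says that the 2 libraries of a group came from separate cultures, so each test measures the spread between these libraries, which may be technical. That spread was unequal. Chi-square per degree of freedom over genes, which sets it against counting error, was 2.36 in control, 3.97 in kd1 and 10.7 in kd2. Each gene's spread was estimated over the 3 groups together, so errors and p-values for kd2 may understate its own spread.

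Ribosomes are assembled in the nucleolus, where RNA polymerase I transcribes the precursor of most ribosomal RNA. UBTF and the SL1 complex, which includes TAF1D, mark the promoter of that gene, and RRN3 brings the polymerase to it. Small nucleolar ribonucleoproteins (snoRNPs) then modify the precursor: the box C/D kind, with FBL, NOP56 and NOP58, adds methyl groups to ribose, and the box H/ACA kind, with DKC1, NHP2, GAR1 and NOP10, turns uridine into pseudouridine. Further factors cut the precursor and fold it with ribosomal proteins into the small and the large subunit. Many of these genes are known targets of MYC, a transcription factor that binds, with MAX, the E-box CACGTG.

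Libraries held between 26844128 and 38193748 counts. ZMYND11 itself was at 141 and 135 CPM (counts scaled to a common library size) in control, 27.7 and 26.1 in kd1 and 21.6 and 22.7 in kd2, so both knockdowns went with their labels. MYC stood at 132 CPM in both control libraries, 17.8 and 18.6 in kd1 and 55.4 and 54.3 in kd2. The 10 proliferation genes listed beside the set (MKI67, TOP2A, CDK1 and others) were all called lower in both knockdowns, with summed levels of 1306 and 1310 CPM in control, 124 and 130 in kd1 and 189 and 204 in kd2. The part of MYC or of proliferation in the results on ribosome biogenesis was not tested. All 10 prostate luminal markers were detected in every library, while the summed level of 8 leukocyte markers was at or under 5.21 CPM in every library and that of 6 endothelial markers at or under 0.608 CPM, with 2 to 4 of the 6 listed at 0. The 8 fibroblast markers summed to 48.9 and 52.5 CPM in control, 88.3 and 89.5 in kd1 and 46.8 and 47.2 in kd2. Of the 8, 2 were higher and 3 lower in kd1, from -3.05 (FBLN1) to 3.62 (COL1A2) on the log2 scale, and 3 higher and 3 lower in kd2, and their part in the results was not tested.

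RefSeq promoters (build GRCh38.p14, from 250 bases before to 50 after the annotated start) were matched for 38 of the 46 genes, some with more than 1 start. The E-box CACGTG, which reads the same on both strands, was in 17 of the 38 (44.7%), against 7.26% of all 35116 promoters in the table and 11.9% of the 12463 tested genes with a promoter there. The share of promoters is per start, while a gene counts if any of its starts matched. Many of the 46 are known MYC targets, so a high share was in part built into the list. In all 17, at least 1 match began within 50 bases of a start, a share not counted for other genes. Stretches around it are shown for 7 genes that went different ways after knockdown, on the strand of the gene and 5′ to 3′, with the E-box in capitals. They come from DDX21 (chr10:68956571-68956666, + strand), GNL3 (chr3:52685993-52686061, + strand), WDR43 (chr2:28894625-28894696, + strand), PES1 (chr22:30591881-30591942, - strand), NOP10 (chr15:34343107-34343192, - strand), FBL (chr19:39846350-39846418, - strand) and UTP20 (chr12:101280050-101280134, + strand).
DDX21: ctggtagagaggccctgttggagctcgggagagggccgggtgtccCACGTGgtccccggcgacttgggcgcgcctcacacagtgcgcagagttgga
GNL3: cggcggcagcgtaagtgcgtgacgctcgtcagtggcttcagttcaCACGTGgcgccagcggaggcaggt
WDR43: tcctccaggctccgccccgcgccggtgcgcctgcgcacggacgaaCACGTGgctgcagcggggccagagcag
PES1: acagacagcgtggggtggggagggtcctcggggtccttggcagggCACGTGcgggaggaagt
NOP10: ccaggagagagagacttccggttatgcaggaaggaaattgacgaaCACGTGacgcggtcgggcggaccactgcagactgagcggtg
FBL: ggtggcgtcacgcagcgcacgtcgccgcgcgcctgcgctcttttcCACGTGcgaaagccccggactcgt
UTP20: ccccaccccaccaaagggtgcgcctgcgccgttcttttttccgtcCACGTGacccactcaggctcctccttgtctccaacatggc
The first 3 genes were lower in kd1 and higher in kd2, the next 2 were higher in both, and the last 2 were lower in both. The same hexamer near the start thus stood in promoters of genes of all 3 patterns.

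The 46 genes did not move as a block in either knockdown. In kd1, 16 were higher and 22 lower than control and 8 were not called (edgeR quasi-likelihood test, Benjamini-Hochberg adjusted p under 0.05 over all 16510 genes tested). Of all genes tested, 78.0% were called in kd1, 38.2% higher and 39.8% lower, so 38 of 46 called is close to the background. In kd2, 25 were higher, 13 lower and 8 not called, where the background was 73.4% called, 36.5% higher and 36.9% lower. The median log2 fold change of the 46 was -0.13 in kd1 and 0.28 in kd2, beside medians of -0.03 for all genes in each. All 46 passed the filter on low counts. With a change of at least 1.5-fold asked as well, 6 were higher and 16 lower in kd1, where 59.7% of all genes passed (28.6% higher, 31.2% lower). In kd2, 15 were higher and 8 lower, where 51.1% of all genes passed (23.8% higher, 27.3% lower). The libraries of the 2 groups did not overlap for 42 of the 46 in kd1 and 44 in kd2, beside 89.7% and 86.3% of all genes. The split in kd1 depends in size on how libraries were scaled: with library totals alone, without TMM factors, the median of all genes moved to -0.38, and 6 of the 46 were higher and 31 lower, while kd2 gave 23 higher and 19 lower.

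**Figure D1:**
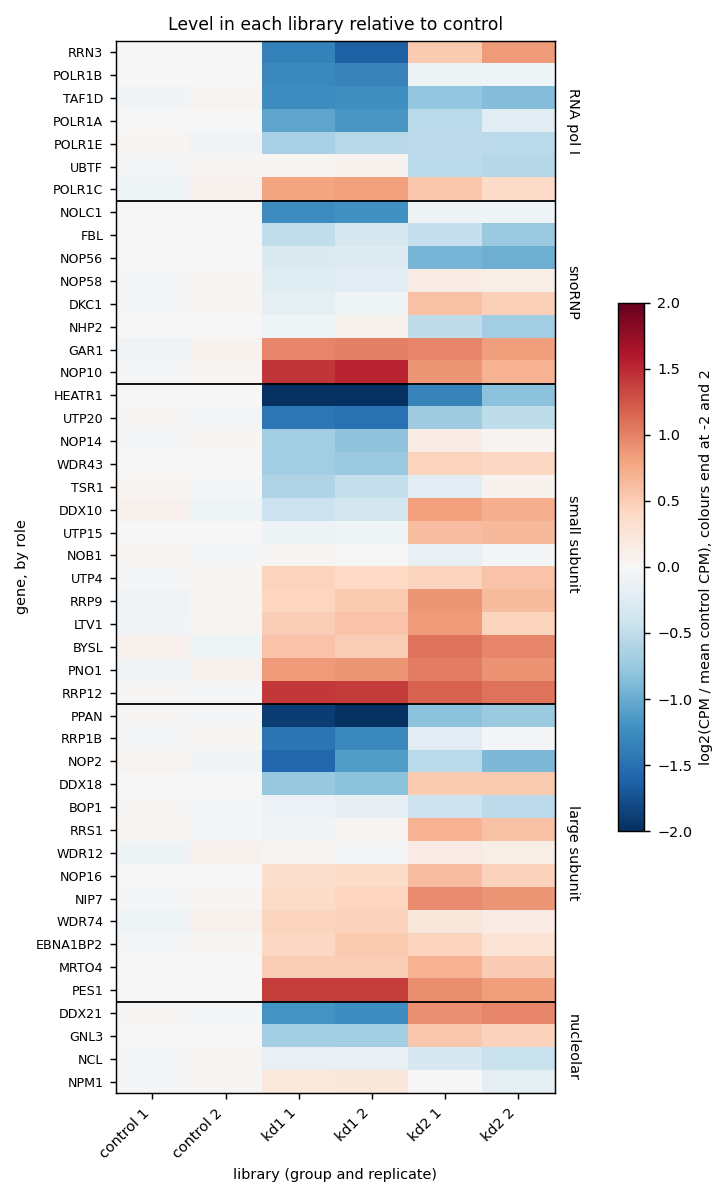
Colour gives log2 of the level (CPM) over the mean control level for the 46 genes (rows, by role) in each of the 6 libraries (columns). Red is higher and blue lower than control, with colours ending at -2 and 2; the 2 libraries of a group look alike, and RRN3, DDX21 and GNL3 are blue in kd1 and red in kd2.

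Read across both knockdowns, 15 genes were called higher in both (25.6% of all genes tested), 10 were lower in both (27.0% of all genes) and 7 were lower in kd1 but higher in kd2 (4.73% of all genes). The 15 higher in both were BYSL, EBNA1BP2, GAR1, LTV1, MRTO4, NIP7, NOP10, NOP16, PES1, PNO1, POLR1C, RRP12, RRP9, UTP4 and WDR74. The 10 lower in both were FBL, HEATR1, NCL, NOP2, NOP56, POLR1A, POLR1E, PPAN, TAF1D and UTP20. The 7 that went opposite ways were DDX10, DDX18, DDX21, GNL3, NOP58, RRN3 and WDR43. The reverse, higher in kd1 and lower in kd2, was seen in 0 of the 46 with edgeR, also at an unadjusted p under 0.05 and with DESeq2, and in 4.37% of all genes. With the GC content and length correction it was seen in 2 of the 46, NCL and UBTF. Of the rest, NOLC1, NOP14, POLR1B, RRP1B and TSR1 were lower in kd1 and not called in kd2 (8.08% of all genes), and NPM1 was higher in kd1 and not called in kd2 (8.26%). BOP1, NHP2 and UBTF were lower in kd2 and not called in kd1 (5.51%), and DKC1, RRS1 and UTP15 were higher in kd2 and not called in kd1 (6.2%). NOB1 and WDR12 were called in neither (10.3%). Both comparisons use the same control libraries. With library totals alone 6 were higher in both (GAR1, NOP10, PES1, PNO1, POLR1C and RRP12), 19 lower in both and 9 lower in kd1 and higher in kd2, and with the GC content and length correction these counts were 12, 11 and 10. The call in kd2 was lost for NOP58, NOP2 and WDR74 in some alternatives, such as leaving out control replicate 1 (0.11, -0.65 and 0.11 on the log2 scale), and the call of NCL in kd1 was lost without any 1 of the 4 libraries compared. In kd2, NOLC1 (-0.11) and TSR1 (-0.21) were called lower without kd2 replicate 2, and WDR12 was called higher without it (0.17) or without control replicate 2 (0.24).

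**Figure D2:**
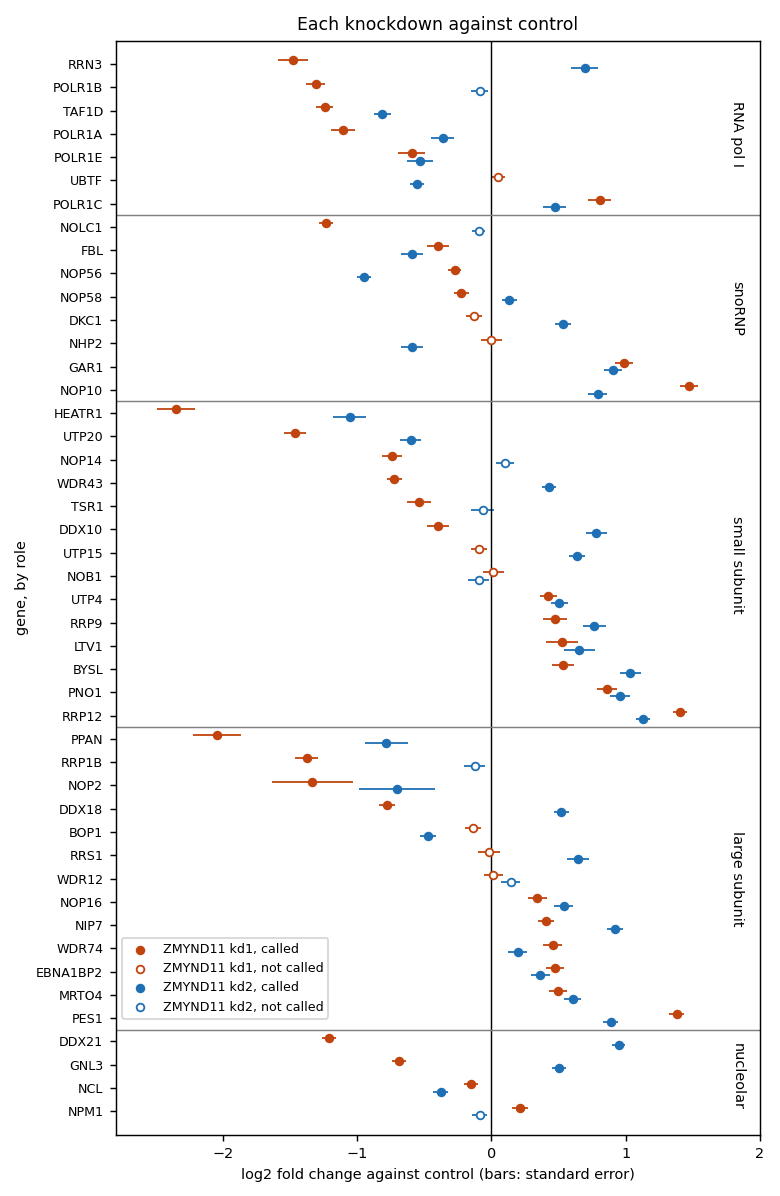
Points give the log2 fold change of each knockdown against control for the 46 genes by role, and bars the standard error; filled points were called and open points were not. RNA polymerase I genes lie mostly left of 0 in kd1, and DDX21, RRN3 and GNL3 have their kd1 and kd2 points on opposite sides of 0.

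Counts by role are small and stand beside the shares of all genes tested. Those shares were 38.2% higher and 39.8% lower in kd1, and 36.5% and 36.9% in kd2. Of RNA polymerase I and its factors, 5 of 7 were lower in kd1 and 4 of 7 in kd2, with median log2 fold changes of -1.11 and -0.36. With a correction for GC content and transcript length the kd1 count stayed at 5 lower (median -0.59), while kd2 turned to 4 higher and 3 lower (median 0.14). POLR1A, the largest subunit, was at 82.2 and 80.6 CPM in control, 39.0 and 36.5 in kd1 and 56.3 and 70.3 in kd2. It fell 2.16-fold in kd1 (log2 fold change -1.11 ± 0.089 SE, adjusted p = 2.74e-08) and 1.29-fold in kd2 (-0.36 ± 0.086, adjusted p = 0.00149), with no overlap with control. After a correction for GC content and transcript length its kd1 value was -0.34 (adjusted p = 9.38e-05) and its kd2 value turned to 0.14 (adjusted p = 0.0456), so the size in kd1 and the direction in kd2 depend on the processing. POLR1B, the second largest subunit, was at 52.8 and 52.7 CPM in control, 21.6 and 21.0 in kd1 and 49.4 and 49.9 in kd2. Its level thus fell 2.48-fold in kd1 (adjusted p = 2.38e-10), while the kd2 difference of -0.09 ± 0.064 was not called (adjusted p = 0.229). With the same correction these values were -0.59 and 0.16. POLR1C, a subunit shared with RNA polymerase III, was the member of this group that rose in both, from 23.7 and 26.8 CPM in control to 43.7 and 44.6 in kd1 and 37.0 and 32.9 in kd2. POLR1E, a subunit that works in starting and extending the transcript, was at 19.8 and 18.5 CPM in control, 12.3 and 13.1 in kd1 and 13.3 and 13.3 in kd2, lower in both by a like amount (log2 fold changes -0.60 ± 0.098 and -0.53 ± 0.097).

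The initiation factors split. RRN3, which links the polymerase to its promoter, stood at 48.9 and 48.7 CPM in control, 19.2 and 15.7 in kd1 and 70.2 and 87.8 in kd2. All kd1 libraries were below and all kd2 libraries above control, with log2 fold changes of -1.48 ± 0.11 (adjusted p = 1.22e-08) and 0.70 ± 0.099 (adjusted p = 1.80e-05), although the 2 kd2 libraries lay further apart than those of the other groups. TAF1D was at 87.3 and 93.8 CPM in control, 37.9 and 38.5 in kd1 and 53.2 and 49.8 in kd2. Its log2 fold changes were -1.24 ± 0.066 and -0.81 ± 0.064, lower in both knockdowns (adjusted p = 2.72e-10 and 3.40e-08). UBTF, which holds ribosomal DNA in an open form, was at 189.5 and 194 CPM in control and 196 and 201 in kd1, and at 131 and 129.7 in kd2. It fell in kd2 (-0.55 ± 0.051, adjusted p = 1.76e-07) and was not called in kd1 (0.05 ± 0.050, adjusted p = 0.359), where it was called lower with library totals alone (-0.30, adjusted p = 4.41e-05) and higher with the GC content and length correction (0.24, adjusted p = 9.23e-05).

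**Figure D3:**
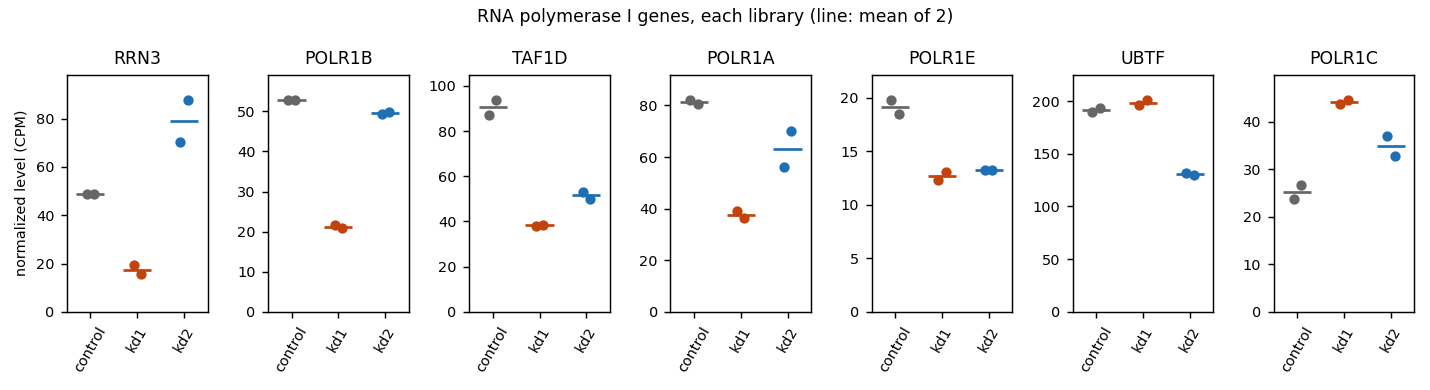
Each panel gives the level (CPM, axes from 0 and different for each gene) of 1 RNA polymerase I gene in the 2 libraries of each group, with a line at their mean. RRN3 is low in kd1 and high in kd2, POLR1B is low in kd1 alone, UBTF is low in kd2 alone and POLR1C is above control in both.

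Among the 9 further RNA polymerase I subunits and factors listed, 3 were higher and 5 lower in kd1, and 6 were higher and 1 lower in kd2. POLR1H, a minor polymerase subunit that takes part in RNA cleavage, had the highest log2 fold change in kd1, from 4.31 and 5.25 CPM in control to 24.6 and 21.9 (2.28 ± 0.163), and 7.70 and 5.23 CPM in kd2 (0.44 ± 0.180). The 9 ran down to -0.74 (POLR1G) in kd1, and in kd2 from -0.46 (TAF1C) to 0.78 (TBP) on the log2 scale. Subunits found only in RNA polymerase II were 4 higher and 2 lower of 7 in kd1 and 4 higher and 1 lower in kd2. POLR2A, the largest subunit of RNA polymerase II, was lower in both, from 114.5 and 109 CPM in control to 23.8 and 17.1 in kd1 and 55.7 and 86.4 in kd2. The highest log2 fold changes of these 7 were 1.94 (POLR2I) in kd1 and 0.80 (POLR2C) in kd2. Subunits found only in RNA polymerase III were 4 higher and 5 lower of 11 in kd1 and 6 higher and 2 lower in kd2, from -2.07 (POLR3G) to 1.97 (POLR3GL) in kd1 and from -1.27 (POLR3G) to 0.88 (POLR3F) in kd2 on the log2 scale. Of the 5 subunits shared by the 3 polymerases, 4 were higher and 1 not called in kd1 and 3 higher and 2 not called in kd2, with POLR2K highest in both (2.02 and 1.59).

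The snoRNP core proteins showed unlike changes within one particle. In kd1, 2 of 8 were higher and 4 lower, and in kd2, 4 were higher and 3 lower. With library totals alone these counts were 2 and 6 in kd1 and 3 and 4 in kd2. For the box C/D proteins, FBL, the methyltransferase, was at 143 and 141 CPM in control, 101 and 114 in kd1 and 103 and 84.8 in kd2. Its level was lower in both (-0.40 ± 0.081, adjusted p = 3.97e-04, and -0.59 ± 0.081, adjusted p = 1.24e-05). NOP56 was at 263 and 269 CPM in control, 218 and 222 in kd1 and 139 and 136 in kd2, a fall of 1.21-fold and 1.93-fold, and the kd2 libraries were below those of kd1 (-0.68 ± 0.051, adjusted p = 2.35e-08). Its partner NOP58 moved little, at 90.2 and 93.6 CPM in control, 77.7 and 79.7 in kd1 and 102 and 99.3 in kd2. The call of NOP58 in kd2 (0.13 ± 0.055, adjusted p = 0.0429) was lost in 11 of 13 alternatives.

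For the box H/ACA proteins, DKC1, the pseudouridine synthase, was at 139.8 and 146 CPM in control, 126 and 134.5 in kd1 and 215 and 199 in kd2. It rose in kd2 (0.54 ± 0.058, adjusted p = 1.01e-06) and was not called in kd1 (-0.13 ± 0.058, adjusted p = 0.0537). In kd1 it was called lower in 5 of 13 alternatives: with library totals alone (-0.49), and near the same value with no filter, in the fit of only the groups compared and without either kd2 library (adjusted p from 0.00569 to 0.0482). NOP10, the smallest protein of the particle, rose in both, from 52.8 and 55.9 CPM in control to 147 and 155 in kd1 and 100 and 88.1 in kd2 (2.78-fold and 1.73-fold, adjusted p = 7.19e-11 and 1.02e-07). GAR1 rose by like amounts, from 52.3 and 57.7 CPM to 108 and 110.2 in kd1 and 108 and 97.9 in kd2 (1.98-fold and 1.87-fold). NHP2 was at 53.6 and 54.4 CPM in control, 50.9 and 57.0 in kd1 and 38.2 and 33.5 in kd2, with a kd1 difference of -0.003 ± 0.078 that was not called and a fall in kd2 (-0.59 ± 0.079, adjusted p = 9.33e-06). The kd1 value of NHP2 was called lower with library totals alone (-0.36, adjusted p = 4.96e-04) and with the GC content and length correction (-0.90, adjusted p = 4.04e-11). NHP2 shares 28.1% of its exon bases with RMND5B on the other strand, and the strand setting of the counting is not given in the sources used here, so reads of the pair cannot be told apart. The same holds for TSR1 (23.9%, SRR), NOP14 (20.7%, NOP14-AS1), NOB1 (20.4%, NQO1-DT), NIP7 (18.4%, COG8) and, at lower shares, others of the 46. LTV1 shares 27.6% with a gene on its own strand. NOLC1, a nucleolar chaperone of snoRNPs, fell from 252 and 254 CPM in control to 106 and 109 in kd1 (-1.24 ± 0.051, adjusted p = 2.08e-11) and was at 234 and 238 in kd2 (-0.10 ± 0.050, adjusted p = 0.0946). Among 17 further rRNA modification and snoRNP assembly genes, 8 were higher and 8 lower in kd1 and 9 higher and 5 lower in kd2, from -1.95 (TCOF1, a nucleolar partner of NOLC1) to 1.68 (TRMT112) in kd1 and from -1.25 (TCOF1) to 1.05 (NUFIP1) in kd2 on the log2 scale.

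Small subunit factors were evenly divided in kd1, with 6 of 14 higher and 6 lower (38.2% and 39.8% of all genes). In kd2 they were mostly higher, with 9 higher and 2 lower (36.5% and 36.9% of all genes). With library totals alone the kd1 count was 2 higher and 8 lower. HEATR1, a large scaffold protein of the small subunit processome, was the gene with the lowest log2 fold change of the 46 in both knockdowns, at 64.8 and 63.6 CPM in control, 14.0 and 11.1 in kd1 and 25.5 and 36.2 in kd2. It fell 5.10-fold in kd1 (-2.35 ± 0.139, adjusted p = 9.21e-10) and 2.08-fold in kd2 (-1.06 ± 0.126, adjusted p = 2.94e-06). With the GC content and length correction these log2 values were -1.56 and -0.79. The lowest of the 46 were then PPAN in kd1 (-2.625) and NOP56 in kd2 (-1.073). HEATR1 shares 23.1% of its exon bases with LGALS8 on the other strand. UTP20, another long scaffold protein, followed the same order, at 53.9 and 52.7 CPM in control, 19.6 and 19.0 in kd1 and 32.7 and 37.6 in kd2. Opposite to these, RRP12, which takes part in the export of both subunits, had the highest log2 fold change of the 46 in kd2 and rose from 100.1 and 97.1 CPM in control to 262 and 260.1 in kd1 and 223 and 209 in kd2 (2.65-fold and 2.19-fold, adjusted p = 1.06e-11 and 1.73e-10).

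PNO1 and BYSL, which act late in small subunit assembly, rose in both knockdowns. PNO1 went from 30.8 and 34.1 CPM in control to 58.5 and 59.7 in kd1 and 66.1 and 60.2 in kd2. BYSL was at 28.5 and 25.3 CPM in control, 40.2 and 37.8 in kd1 and 57.0 and 53.1 in kd2, and its kd1 call was lost after the GC content and length correction (0.02, adjusted p = 0.855). NOB1, the nuclease that makes the end of the small subunit rRNA, was called in neither (0.01 ± 0.078 in kd1 and -0.09 ± 0.078 in kd2), with levels from 26.1 to 29.6 CPM over the 6 libraries, but was called lower in both with library totals alone (-0.34 and -0.27) and with the GC content and length correction (-0.41 and -0.20). WDR43 and DDX10, factors of the early small subunit particle, went opposite ways. WDR43 was at 96.2 and 97.2 CPM in control, 59.5 and 57.6 in kd1 and 131 and 129 in kd2. DDX10, a DEAD-box helicase, was at 34.8 and 30.9 CPM in control, 24.3 and 25.5 in kd1 and 58.3 and 54.6 in kd2. The remaining members ran from -0.74 (NOP14) to 0.53 (LTV1) in kd1 and from -0.07 (TSR1) to 0.77 (RRP9) in kd2 on the log2 scale. Of 37 further small subunit factors tested (38 listed), 23 were higher and 9 lower in kd1 and 27 higher and 3 lower in kd2. UTP11, a processome protein, was highest among them, from 39.6 and 43.1 CPM in control to 123 and 121 in kd1 and 130.5 and 125 in kd2, and DDX47 was lowest, under 3 CPM in all libraries (-1.65 and -1.94 on the log2 scale).

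Large subunit factors were 6 higher and 4 lower of 13 in kd1 and 8 higher and 3 lower in kd2. The kd1 count turned to 4 higher and 8 lower with the GC content and length correction and to 1 higher and 7 lower with library totals alone. The 3 proteins of the PeBoW complex, which is needed for maturation of the large subunit rRNA, did not move together. PES1 was at 85.3 and 87.0 CPM in control, 225 and 224 in kd1 and 165 and 154.5 in kd2 (1.38 ± 0.055 and 0.89 ± 0.054 on the log2 scale, adjusted p = 1.29e-11 and 2.19e-09). BOP1 was at 88.7 and 85.3 CPM in control, 80.2 and 77.9 in kd1 and 65.1 and 60.3 in kd2, with a kd1 difference that was not called (-0.14 ± 0.060, adjusted p = 0.0503) and a fall in kd2 (-0.47 ± 0.061, adjusted p = 6.49e-06). WDR12 was called in neither, at 58.2 and 66.0 CPM in control, 64.3 and 61.0 in kd1 and 69.9 and 67.2 in kd2. BOP1 was called lower in kd1, near the same value, in the fit of only the groups compared (adjusted p = 0.00992) and without either kd2 library (adjusted p = 0.0114 and 0.0101). With the GC content and length correction BOP1 was called lower in kd1 (-0.87, adjusted p = 6.26e-12) and WDR12 higher in both (0.81, adjusted p = 1.22e-09, and 0.36, adjusted p = 7.57e-05), while with library totals alone both were called lower in kd1 (-0.49 and -0.34).

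PPAN, a factor of early large subunit particles, was at 7.92 and 7.63 CPM in control, 2.09 and 1.66 in kd1 and 4.39 and 4.64 in kd2 (-2.04 ± 0.179, adjusted p = 7.33e-08, and -0.78 ± 0.157, adjusted p = 4.17e-04). The read-through gene PPAN-P2RY11 covers 47.6% of its exon bases and is listed at 0 counts, so reads shared by the 2 may have been dropped. NOP2, an rRNA methyltransferase, was the gene with the lowest level, at 2.37 and 2.19 CPM in control, 0.765 and 1.05 in kd1 and 1.57 and 1.23 in kd2. An overlapping gene on the same strand covers 54.4% of its exon bases, so its counts are uncertain. NIP7, a factor of large subunit rRNA processing, was at 54.9 and 56.5 CPM in control, 72.5 and 75.2 in kd1 and 108 and 103 in kd2, higher in both and higher in kd2 than in kd1 (0.51 ± 0.057, adjusted p = 1.77e-06). DDX18, a DEAD-box helicase, was at 72.9 and 72.6 CPM in control, 43.2 and 41.4 in kd1 and 105 and 104 in kd2, and thus lower in kd1 and higher in kd2. RRP1B was lower in kd1, at 58.7 and 60.3 CPM in control and 21.5 and 24.3 in kd1, and was not called in kd2, at 50.6 and 58.5 CPM (-0.13 ± 0.080, adjusted p = 0.169). In kd2 RRP1B was called lower without kd2 replicate 2 (-0.23, adjusted p = 0.00597) and with library totals alone (-0.30, adjusted p = 0.00506). NOP16, MRTO4, EBNA1BP2 and WDR74 were higher in both, between 0.34 and 0.50 in kd1 and between 0.19 and 0.60 in kd2 on the log2 scale. With the GC content and length correction NOP16 and WDR74 were called lower in kd1 (-0.37 and -0.36) and EBNA1BP2 lost its kd1 call, and the kd2 call of WDR74 was lost in 5 of 13 alternatives. Of 42 further large subunit factors, 23 were higher and 17 lower in kd1 and 22 higher and 9 lower in kd2. Their lowest and highest in kd1 were URB1, from 33.1 and 32.6 CPM in control to 8.24 and 9.66 (and 19.2 and 23.2 in kd2), and SBDS, a late maturation factor, from 134 and 136 CPM to 544 and 544 (and 405 and 359 in kd2). In kd2 they ran from -1.24 (NLE1) to 1.54 (RSL24D1) on the log2 scale. Of 14 exosome genes, whose products trim rRNA precursors, 8 were higher and 4 lower in kd1 and 8 higher and 3 lower in kd2. EXOSC2 was lowest among them in both (-1.19 and -1.38), while EXOSC4 was highest in kd1 (2.37) and EXOSC1 in kd2 (1.56).

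Per kilobase of transcript, levels in control ran from 0.860 (NOP2) to 566 (NPM1) CPM per kb, with a median of 24.0. NPM1 and NCL, the most abundant nucleolar proteins, were followed by NOP56 (139 ± 2.09, SD, n = 2), FBL (126 ± 1.41, SD, n = 2) and NOP10 (107 ± 4.35, SD, n = 2). After GNL3 (87.2 ± 1.31, SD, n = 2), DDX21, NHP2 and NOLC1 stood at 69.3 ± 1.15, 69.2 ± 0.772 and 67.9 ± 0.400 CPM per kb (SD, n = 2 each), and DDX21 and NHP2 were closer to each other than their spread. NCL and NPM1 changed by less than 1.5-fold in both knockdowns. NCL was at 816 and 838 CPM in control, 743 and 747 in kd1 and 661 and 610.1 in kd2. NPM1 was at 737 and 756 CPM in control, 861 and 871 in kd1 and 747 and 657 in kd2. The NPM1 difference was called higher in kd1 (0.21 ± 0.059, adjusted p = 0.00454) and not called in kd2 (-0.09 ± 0.059, adjusted p = 0.189), and its kd1 sign turned with library totals alone (-0.14) and with the GC content and length correction (-0.08). The kd1 call of NPM1 was lost without control replicate 1 (adjusted p = 0.058), and in kd2 it was called lower without kd2 replicate 1 (-0.19, adjusted p = 1.52e-04), with library totals alone (-0.26) and with the correction (-0.29). The NCL value in kd1 (-0.15 ± 0.053, adjusted p = 0.0175) turned to 0.20 under the same correction. The summed level of the 46 genes, in which NPM1 and NCL weigh most, was 4962 and 5045 CPM in control, 4743 and 4805 in kd1 and 5593 and 5366 in kd2. As a share of all counts, without TMM factors, the 46 made up 0.5625% and 0.5669% in control and 0.4219% and 0.4207% in kd1. In kd2 the share was 0.5544% and 0.5445%, so on that scale the sum was below control in kd2 and further below it in kd1. In bulk libraries, fewer cells that express a gene and less RNA of it per cell cannot be told apart.

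DDX21 and GNL3, the other members of the abundant nucleolar group, went opposite ways in the knockdowns. DDX21, a helicase of the nucleolus that works with RNA polymerase I and snoRNAs, was at 327 and 320 CPM in control, 142 and 137 in kd1 and 609 and 638 in kd2. All kd1 libraries were below and all kd2 libraries above control (-1.21 ± 0.052, adjusted p = 3.16e-11, and 0.95 ± 0.051, adjusted p = 5.62e-10), so that kd2 stood 4.47-fold above kd1. GNL3, a nucleolar GTPase, was at 167 and 170.4 CPM in control, 106 and 104 in kd1 and 245 and 233 in kd2 (-0.69 ± 0.053, adjusted p = 1.71e-08, and 0.50 ± 0.052, adjusted p = 6.14e-07).

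Set against each other directly, 24 of the 46 genes were higher in kd2 than in kd1, 11 were lower and 11 were not called, beside 68.8% of all genes called, 34.9% higher and 33.8% lower. With at least 1.5-fold asked as well, 17 were higher and 4 lower (44.8% of all genes passed, 21.9% higher and 22.8% lower), and the libraries of kd1 and kd2 did not overlap for 41 of the 46 (83.1% of all genes). The counts were 32 higher and 8 lower with the GC content and length correction and 31 and 6 with library totals alone. The median difference of the 46 was 0.33 on the log2 scale, beside 0.02 for all genes. RRN3 (2.17 ± 0.109, adjusted p = 4.00e-10) and DDX21 (2.16 ± 0.053, adjusted p = 1.93e-12) differed most. Another 9 genes were at least 2-fold higher in kd2 than in kd1, namely DDX18, HEATR1, PPAN, RRP1B, POLR1B, GNL3, DDX10, WDR43 and NOLC1, with values from 1.14 to 1.30. With the GC content and length correction, DDX18, HEATR1, POLR1B, DDX10, WDR43 and NOLC1 came to between 0.74 and 0.90, under 2-fold, and RRS1 to 1.06. PPAN then came to 1.74, between RRN3 (1.80) and DDX21 (1.69). The 11 lower in kd2 ran from -0.68 (NOP10) to -0.23 (NCL), and none of them reached 2-fold. ZMYND11 itself was lower in kd2 than in kd1 by a small amount (-0.28 ± 0.071, adjusted p = 0.00265), and MYC was higher (1.59 ± 0.065, adjusted p = 6.28e-11).

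**Figure D4:**
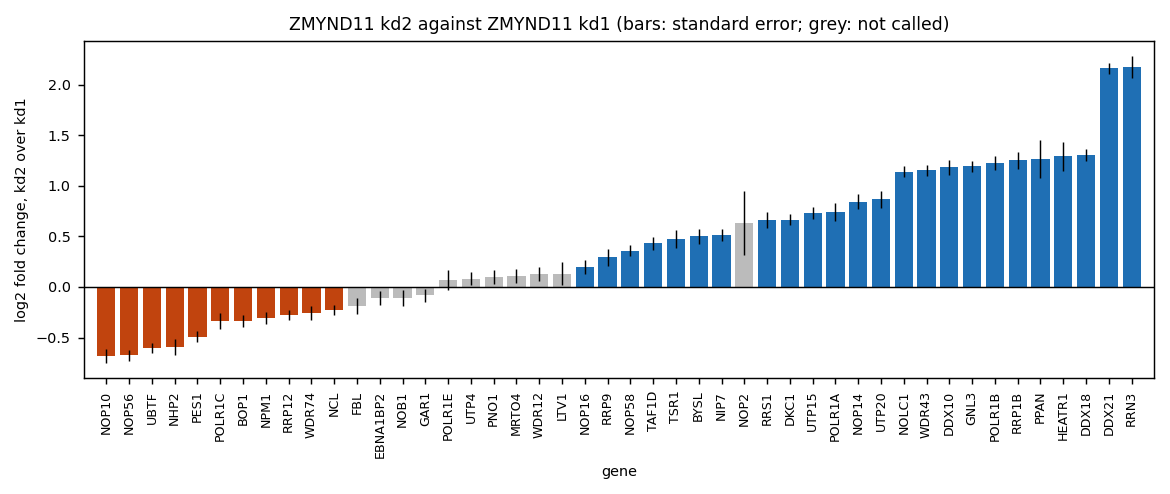
Bars give the log2 fold change of kd2 over kd1 for the 46 genes in order, with the standard error; blue bars were called higher in kd2, orange bars lower, and grey bars were not called. RRN3 and DDX21 stand above 2, and the lowest bars, NOP10 and NOP56, are near -0.68.

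The direction of a gene in kd1 went with the length of its transcript. Of the 23 genes with shorter transcripts (507 to 2242 bp), 14 were higher and 6 lower in kd1, and of the 23 with longer transcripts (2265 to 12480 bp), 2 were higher and 16 lower. In kd2 the shorter genes were 16 higher and 5 lower and the longer 9 higher and 8 lower. Across the 46 genes, Spearman's rho between length and the kd1 log2 fold change was -0.54, and across all 15950 tested genes with a length it was -0.32, so that the trend was also seen outside the set. For kd2 it was -0.15 in the 46 and -0.12 in all, and for kd2 against kd1 0.55 and 0.31. Genes share libraries and are not independent, so these are descriptions. RRP12 and PES1 were the longer genes that were higher in kd1, and among the shorter TAF1D, POLR1E, FBL, NOP56, NOP58 and GNL3 were lower.

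After a correction of each library for GC content and transcript length, rho in the 46 genes was -0.10 in kd1, 0.01 in kd2 and 0.16 for kd2 against kd1. The shorter genes were then 8 higher and 12 lower in kd1, and the longer 6 higher and 14 lower. The kd1 sign turned for UTP15, RRP9, NOB1, NOP16, WDR74, NCL and NPM1. Of these RRP9, NOP16 and WDR74 went from called higher to called lower and NCL from lower to higher, and the kd1 calls of BYSL, TSR1, DDX10, EBNA1BP2 and NPM1 were lost. The correction also gave kd1 calls to 7 genes without one, with log2 fold changes of -0.90 (NHP2), -0.87 (BOP1), -0.52 (RRS1), -0.41 (NOB1), 0.24 (UBTF), 0.48 (UTP15) and 0.81 (WDR12). In kd2 it gave calls to POLR1B (0.16), NOB1 (-0.20), WDR12 (0.36) and NPM1 (-0.29), and the calls of NOP58 and WDR74 were lost. In all, 14 of the 46 were higher and 26 lower in kd1 and 26 higher and 14 lower in kd2 with that correction, with medians of -0.35 and 0.27. HEATR1 came to a log2 fold change of -1.56 in kd1 and -0.79 in kd2, DDX21 to -0.71 and 0.99, PES1 to 0.95 and 0.80, RRP12 to 1.40 and 1.24 and RRN3 to -1.14 and 0.66. The signs of these were kept. Without the correction the kd1 values of HEATR1 (-2.35), DDX21 (-1.21), PES1 (1.38) and RRN3 (-1.48) lay further from 0. In kd1 the corrected values of UTP20 (-0.65), POLR1C (0.35), GAR1 (0.52) and NOP10 (0.87) were nearer 0 and those of FBL (-1.20) and NOP56 (-0.54) further from it than without the correction. RNA quality, fragmentation and cell state were not measured here, and their part in the trend was not tested.

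Promoter motifs were set beside these directions. Of the 17 genes with CACGTG, 10 were higher and 7 lower in kd1 and 13 higher, 3 lower and 1 not called in kd2. Of the 21 matched genes without it, 5 were higher, 10 lower and 6 not called in kd1 and 8 higher, 8 lower and 5 not called in kd2. The difference between genes with and without the E-box was not tested. The other motifs, searched on both strands, were CCGGAAGT (bound by ETS factors), in 11 of the 38 genes (28.9%, beside 4.14% of all promoters and 8.64% of tested genes), TCTCGCGA, in 6 (15.8%, beside 1.15% and 2.48%), and GCGCATGC (the core of the NRF1 site), in 3 (7.89%, beside 3.05% and 5.86%). The share with GCGCATGC is near that of tested genes. No matches of different motifs shared bases in these promoters. Of the 11 genes with CCGGAAGT, 7 were higher and 4 lower in kd1 and 9 higher and 1 lower in kd2. A match is a run of letters and was not tested for binding.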

How the data were processed

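RNA-seq libraries of 22Rv1 cells (2 control, 2 kd1, 2 kd2) were used. Per the submitters' processing notes and the study's methods, reads were checked with FastQC 0.11.9 and aligned to hg38 with STAR 2.7.9a. HTSeq 0.13.5 is also named, with no role given, and the annotation and strand setting are not given in the sources used here. The authors deposited raw counts per gene, 26844128 to 38193748 per library, and counting error and spread were taken from these counts.

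Genes were filtered with filterByExpr (16510 of 35322 kept), scaled by TMM and tested in 1 model of the 3 groups with edgeR 4.0.16 (quasi-likelihood F-test, R 4.3.3, 3 residual degrees of freedom). P-values were adjusted by Benjamini-Hochberg over all genes of a comparison, two-sided, with a call at 0.05, and SE is the log2 fold change over the square root of F. CPM uses TMM-scaled library sizes. Lengths, GC content and positions are those of the GENCODE canonical transcript on hg38, found by symbol for 32852 of 35322 genes. The steps were tested on simulated counts in which few genes changed, as many up as down. In these data most genes were called (78.0% in kd1 and 73.4% in kd2), so the simulation does not test the scaling in that setting. Alternatives were DESeq2 1.42.0, its size factors, library totals, no filter, a replicate block, a GC content and length correction, fits of only the groups compared and leaving out each library. Members and lists were chosen with earlier results of these data known. Genes named with full values were ZMYND11, 12 members with well-known roles and the members with the lowest and highest log2 fold change of each role in each knockdown, with MYC for reference and the extremes of each further list. Others were named with fewer values after their values were seen. Protein sequences were not analysed here.

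Replicate numbers were checked as pairs: deviations from group means correlated at 0.01 (control and kd1), -0.05 (control and kd2) and -0.11 (kd1 and kd2), so the numbers do not pair the samples.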

Additional observations from a re-analysis of the deposited data

Results flagged for a closer look

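Among the genes, 7 were called lower in kd1 and higher in kd2 (edgeR quasi-likelihood test, adjusted p under 0.05), a pattern seen in 4.73% of all genes tested. A difference between the knockdowns was called in each, which nearly follows from how the 7 were picked and adds no support. The log2 fold change of kd2 over kd1 was 2.17 for RRN3, 2.16 for DDX21, 1.30 for DDX18, 1.19 for GNL3, 1.18 for DDX10, 1.15 for WDR43 and 0.36 for NOP58. For 5 of them (DDX18, DDX21, GNL3, RRN3 and WDR43) both calls against control were the same in all 13 alternatives. The kd1 call of DDX10 was lost after the GC content and length correction, and the kd2 call of NOP58 was lost in 11 of the 13. Both comparisons against control share the control libraries, while the difference between knockdowns does not use them other than for the spread.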

How the results depend on the processing

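Calls on the 46 genes were the same in all 13 alternatives for 25 of 38 in kd1, 34 of 38 in kd2 and 26 of 35 between the knockdowns. Scaling by library totals alone moved the median of all genes to -0.38, -0.20 and 0.21 in kd1, kd2 and kd2 against kd1, and gave 35.3%, 40.8% and 61.1% of calls as higher (49.0%, 49.8% and 50.8% with TMM). Members called higher in kd1 then numbered 6 and members lower in kd2 than kd1 6, and their medians were -0.489, 0.108 and 0.509. Under the same scaling signs turned in kd1 for UBTF (-0.303), NOB1 (-0.343), WDR12 (-0.341), NOP16 (-0.013) and NPM1 (-0.141), in kd2 for NOP58 (-0.038), NOP14 (-0.071) and WDR12 (-0.029), and between knockdowns for GAR1 (0.10), NOB1 (0.078) and EBNA1BP2 (0.074).

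The GC content and length correction moved the median in kd1 to -0.350. It turned signs in kd1 for UTP15 (0.481), RRP9 (-0.273), NOB1 (-0.406), NOP16 (-0.366), WDR74 (-0.361), NCL (0.196) and NPM1 (-0.081), in kd2 for POLR1A (0.142), POLR1B (0.159), NOP58 (-0.044), TSR1 (0.034) and RRP1B (0.008), and between knockdowns for FBL (0.447), NHP2 (0.131), GAR1 (0.217), PNO1 (-0.076), NOB1 (0.204), BOP1 (0.301), WDR12 (-0.448), EBNA1BP2 (0.134) and WDR74 (0.409). The cause was not tested. NHP2 in kd1 was 0.002 with DESeq2 size factors and 0.003 with DESeq2, but was called at -0.359 with library totals alone and at -0.898 with this correction.

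Leaving out 1 library at a time gave member medians from -0.136 to -0.117 in kd1, 0.207 to 0.340 in kd2 and 0.240 to 0.358 between knockdowns. Genes near 0 changed sign: NHP2 (-0.086 to 0.077), NOB1 (-0.020 to 0.045), WDR12 (-0.075 to 0.107) and RRS1 (-0.074 to 0.041) in kd1, TSR1 (-0.213 to 0.060) in kd2, and LTV1 (-0.10 to 0.318) and MRTO4 (-0.002 to 0.201) between knockdowns. With 1 library left in a group, its spread is taken from the other groups.

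The replicate numbers do not pair the samples. With the replicate block, 12545, 11688 and 10978 genes were called (12882, 12118 and 11355 without), and 16 higher and 22 lower members in kd1, 24 and 12 in kd2 and 24 and 11 between knockdowns. With kd2 numbers exchanged, chosen after seeing the data, 11574 genes and 24 higher and 12 lower members were called between knockdowns. Counting depth limits NOP2 and PPAN, the genes with the fewest counts.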
